A study of Rattus norvegicus with 12 samples.

Results

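Messenger RNA of 9 genes that sense cholesterol, control its entry or move it out of the cell was followed across the 4 groups of a microarray study of PC12 cells, a rat pheochromocytoma line derived from adrenal chromaffin cells. The genes were Srebf1, Srebf2, Scap, Insig1, Insig2, Mylip, Stard4, Abca1 and Abcg1, taken by symbol out of 22093 genes that the array names with a single symbol. A feature, the array's transcript cluster, stood for a gene, and each of the 9 genes had exactly 1 such feature. All 9 lay above the filter on low values, which kept 34422 features, so none was lost before testing.

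The cells carried a doxycycline-inducible GFP-tagged exon-1 fragment of huntingtin with 74 glutamines. The groups were Non-Induced DMSO, Induced-DMSO, and induced cells given #3 10 uM or #6 10 uM, here compound 3 and compound 6, with 3 arrays each. Induction was with doxycycline at 1 µg/ml, the compounds were given for 48 h at 10 µM, and the vehicle groups received DMSO. Doxycycline was given only to induced cells, so the inducer and the fragment cannot be told apart. The compounds were also given only to induced cells, so a compound group set against non-induced cells differs in induction and compound together. The series title calls the compounds analogues of guanabenz, an antihypertensive drug also studied for its effect on the stress-induced phosphatase of protein synthesis, and they are known here by code number only. One stable line is a single cell background, and the labels number the arrays without saying that they came from separate cultures, so the p-values reflect variation among these arrays alone, and that variation may be technical. These are bulk samples, in which fewer cells of a type and less RNA per cell cannot be told apart.

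Cells hold their cholesterol steady with a feedback loop in the endoplasmic reticulum. When sterols are plentiful, INSIG proteins hold the sensor SCAP and the transcription factors of the SREBP family there, and when sterols are scarce SCAP escorts SREBP to the Golgi, where proteases release the active factor that switches on genes of sterol synthesis and uptake. The opposing arm uses the LXR nuclear receptors, which oxysterols activate and which raise the efflux pumps ABCA1 and ABCG1 and the ubiquitin ligase MYLIP, known to send lipoprotein receptors for degradation. Insig1, Stard4 and Srebf2 itself are known SREBP targets, and Srebf1 is a known LXR target.

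The promoter windows of Srebf2, Insig1 and Abca1 are shown because their expression values separate the groups most or lead the SREBP and the efflux arm. Each runs 5′ to 3′ on the gene's strand from 250 bases before to 50 bases after the start site, from RefSeq on rat build GRCr8: Srebf2 at chr7:115543057-115543356 (plus strand), Insig1 at chr4:8057720-8058019 (minus strand) and Abca1 at chr5:72596424-72596723 (minus strand). Capitals mark the letters of 4 motifs searched on both strands: ATCACCCCA (one published form of the sterol regulatory element), CACGTG (an E-box), CCAAT (the box bound by NF-Y) and GGGCGG (a GC box bound by Sp-family factors).
Srebf2: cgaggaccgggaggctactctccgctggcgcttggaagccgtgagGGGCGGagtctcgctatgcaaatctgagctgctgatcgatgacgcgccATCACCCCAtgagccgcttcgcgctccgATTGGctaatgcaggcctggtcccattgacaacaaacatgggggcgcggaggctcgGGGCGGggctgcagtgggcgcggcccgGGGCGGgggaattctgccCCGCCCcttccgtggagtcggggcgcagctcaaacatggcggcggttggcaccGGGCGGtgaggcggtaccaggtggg
Insig1: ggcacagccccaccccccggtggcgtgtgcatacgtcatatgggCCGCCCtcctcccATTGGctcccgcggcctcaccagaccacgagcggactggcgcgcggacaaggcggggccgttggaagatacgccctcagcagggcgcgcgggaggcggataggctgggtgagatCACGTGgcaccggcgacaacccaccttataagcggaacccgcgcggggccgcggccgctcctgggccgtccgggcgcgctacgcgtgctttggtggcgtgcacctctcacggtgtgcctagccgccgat
Abca1: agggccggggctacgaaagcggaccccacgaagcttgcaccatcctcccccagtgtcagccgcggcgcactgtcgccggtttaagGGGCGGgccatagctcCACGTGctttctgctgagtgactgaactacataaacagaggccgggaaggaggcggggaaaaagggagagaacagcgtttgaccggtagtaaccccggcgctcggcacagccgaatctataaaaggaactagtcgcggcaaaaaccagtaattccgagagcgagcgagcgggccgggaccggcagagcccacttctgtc

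The window of Srebf2 held 1 match to ATCACCCCA, beginning 157 bases before the start site, with 1 CCAAT and 5 GC boxes. The Insig1 window held 1 E-box, 1 CCAAT box and 1 GC box, and that of Abca1 held 1 E-box and 1 GC box. None of these matches overlapped another. ATCACCCCA occurred in 82 of 33469 promoter windows of this length (0.245%) and in 1 of the 8 windows matched to 7 of the 9 genes, the Srebf2 window. CACGTG was present in 6.42% of all windows and in 3 of the 8, those of Insig1, Abca1 and Scap. The other motifs were common, with CCAAT in 37.5% of all windows and 6 of the 8, and GGGCGG in 33.1% and 7 of the 8. Srebf1 has more than 1 of these windows and is counted repeatedly in both, so the counts are of windows, not genes. A match describes letters, not a bound site, and a window without one says nothing of the factor.

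The Srebf2 gene also hosts a microRNA, which in mouse and human is known to repress Abca1, and its mature sequence is shown for that link between the arms. In RefSeq it lies at chr7:115593957-115593977 (plus strand, GRCr8), within the span of Srebf2, and the capitals mark its seed, bases 2 to 8.
rno-miR-33-5p: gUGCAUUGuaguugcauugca
The array's Mir33 feature lay between 3.25 and 4.07 log2 units on the 12 arrays, under the filter, and was not tested.

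Values are the submitters' log2 expression summaries after RMA, a normalization that brings the arrays toward one distribution, and a difference of 1 log2 unit is a doubling of signal. Over all features the array medians lay between 4.61 and 4.70 and the 95th percentiles between 10.09 and 10.32. The deposited distributions were thus close but not the same. Any pair of arrays correlated at 0.9949 or more across features. Chromaffin markers were clearly present, with 9 of 10 listed genes named and their means between 7.31 and 12.31, and the level summed over them was 95.15 to 96.51 on non-induced arrays, 88.54 to 90.98 with induction and vehicle, 82.82 to 87.71 with compound 3 and 89.16 to 91.59 with compound 6. Of the other cell types, 8 of 22 listed markers lay above the filter, the highest being the collagen gene Col1a1 at 6.31. The part that these shifts in chromaffin markers have in the results below was not tested. Tests used limma, a linear model with a shared estimate of the spread, and a feature passed where its p, adjusted by the Benjamini-Hochberg method over the 34422 features, was under 0.05.

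Srebf2 and Insig2 were higher in induced cells given compound 3 than in non-induced cells, and these were the only 2 of the 9 genes that passed the test in any of 6 comparisons. Srebf2 rose by 0.43 ± 0.07 log2 units (SE, n = 3 against 3), 1.35-fold, and Insig2 by 0.18 ± 0.05, 1.13-fold. That comparison holds induction and compound 3 together and cannot credit either alone. In it 15.2% of all features passed, beside 2 of the 9 genes (22.2%). In induced cells none of the 9 genes passed for either compound against vehicle. With compound 3, Srebf2, Insig1 and Stard4 lay above vehicle on every array while Abca1 and Abcg1 lay below it on every array. Of all features, 4.76% lay wholly above and 5.18% wholly below in that comparison. With compound 6 Abca1 alone of the 9 separated from vehicle, also downward, beside 8.04% of all features that did so in either direction.

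**Figure D1:**
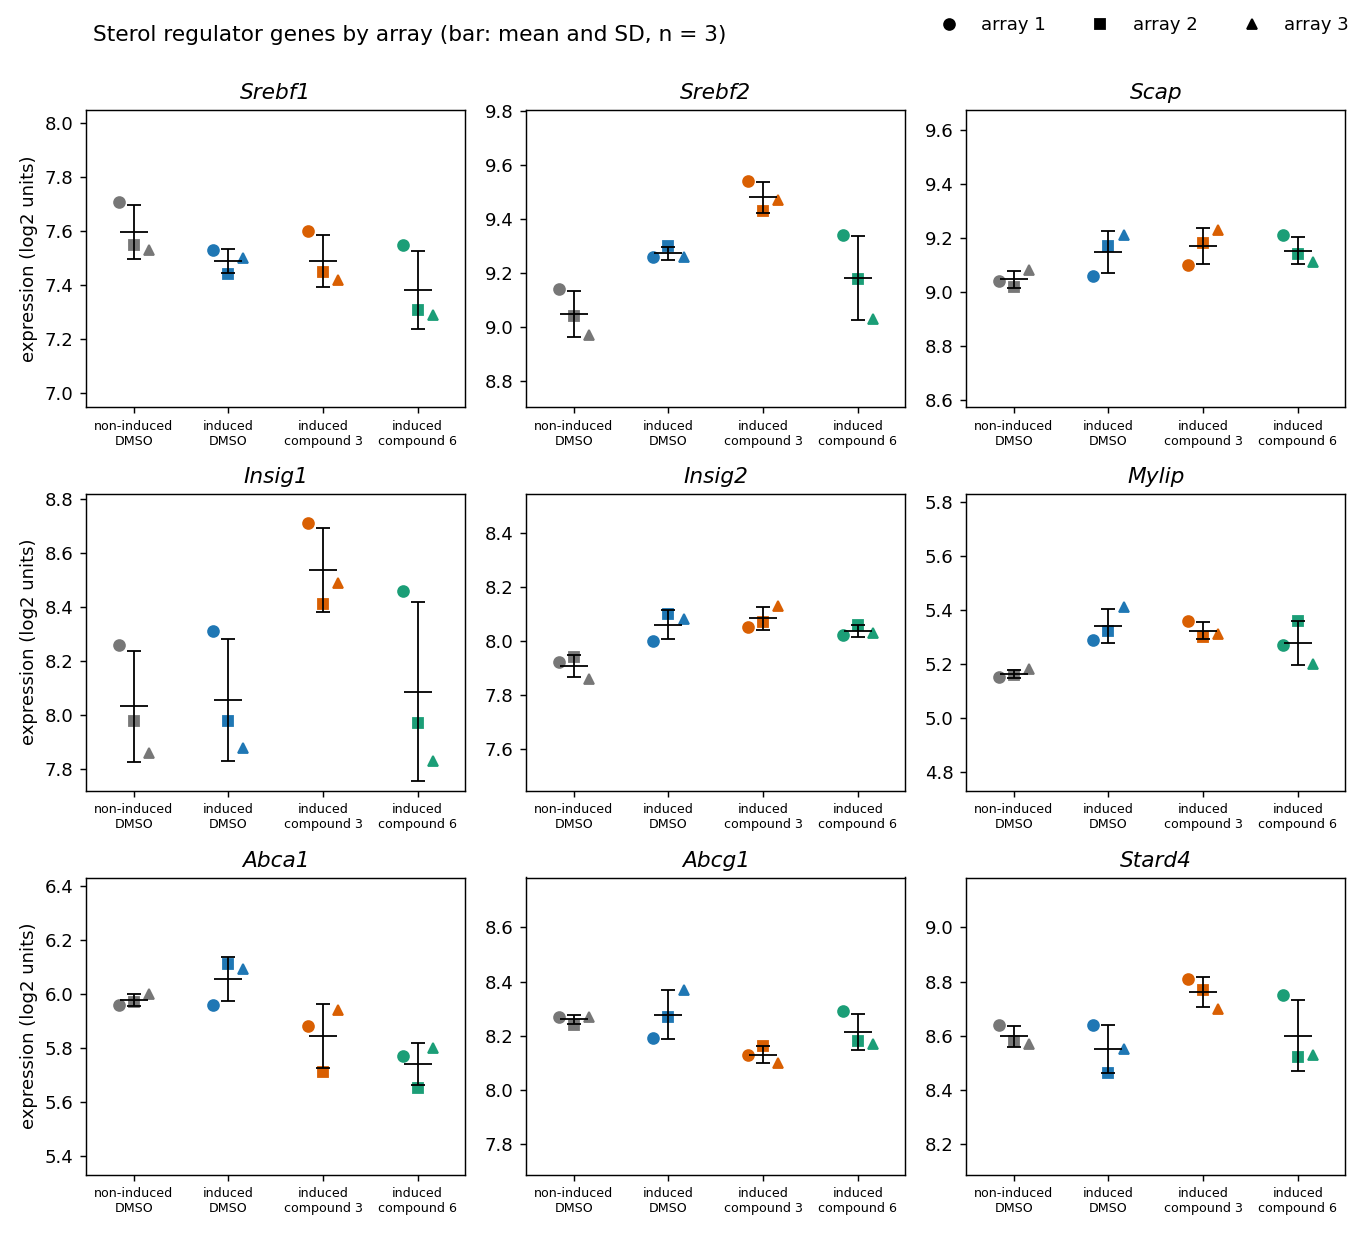
Deposited log2 expression of the 9 genes on each of the 12 arrays, with 1 panel per gene, the 4 groups along the horizontal axis, a point per array marked by its number, and bars for each group's mean and SD (n = 3). Compound 3 arrays are the highest for Srebf2 (9.43 to 9.54), lie above all vehicle arrays for Insig1 (8.41 to 8.71), and both compound groups lie below both vehicle groups for Abca1.

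Among the transcription factors and their escort, Srebf2 (feature TC0700001520.rn.1), which encodes the SREBP best known for driving cholesterol synthesis, was the one that passed. Its level was 9.14, 9.04 and 8.97 in non-induced cells, 9.26, 9.30 and 9.26 with induction and vehicle, 9.54, 9.43 and 9.47 with compound 3, and 9.34, 9.18 and 9.03 with compound 6. Every compound 3 array lay above every array of the other groups, while the compound 6 arrays spread from the non-induced level to above the induced vehicle level. Against non-induced cells the compound 3 difference passed (limma, adjusted p = 0.00212; 95% interval 0.269 to 0.591) and did so in 21 of 21 other settings. The rise against vehicle in induced cells was 0.21 (interval 0.045 to 0.368, adjusted p = 0.555) and did not pass. Induction alone gave 0.22 (interval 0.062 to 0.385, adjusted p = 0.09), also without overlap of the arrays. This passed in 3 of 21 other settings, 1 of them without compound 6 array 1 (adjusted p = 0.0481). It did not pass in 18, where the adjusted p reached 0.289.

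Srebf1, whose product mainly drives fatty acid synthesis, was at 7.71, 7.55 and 7.53 in non-induced cells, 7.53, 7.44 and 7.50 with induction and vehicle, 7.60, 7.45 and 7.42 with compound 3 and 7.55, 7.31 and 7.29 with compound 6. All groups overlapped, and the means ran downward from non-induced cells to compound 6, with vehicle and compound 3 equal at 7.49. No comparison passed: the widest difference, compound 6 against non-induced cells, was -0.21 (adjusted p = 0.147). It passed in 2 of 21 other settings, 1 of them without compound 6 array 1, at -0.30 (adjusted p = 0.0433). In the other 19 it did not pass, and the adjusted p reached 0.396. Scap, the sterol sensor that carries SREBP to the Golgi, had the narrowest range of the 9 genes, 0.21 log2 units over 12 arrays. It lay between 9.02 and 9.08 in non-induced cells, 9.06 and 9.21 with vehicle, 9.10 and 9.23 with compound 3, and 9.11 and 9.21 with compound 6. Its smallest adjusted p in any comparison was 0.173, for compound 3 against non-induced cells (0.12 log2 units).

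The 2 INSIG genes encode the retention proteins of the loop. Insig1 (feature TC0400000004.rn.1) had the widest range of the 9 genes, 0.88 log2 units, and was 8.26, 7.98 and 7.86 in non-induced cells, 8.31, 7.98 and 7.88 with induction and vehicle, 8.71, 8.41 and 8.49 with compound 3, and 8.46, 7.97 and 7.83 with compound 6. All 3 compound 3 arrays lay above all 6 vehicle arrays, and compound 6 array 1 fell within the compound 3 range while the other 2 lay at vehicle level. The compound 3 difference was 0.48 ± 0.17 (SE) against induced vehicle cells, 1.39-fold (interval 0.112 to 0.848, limma adjusted p = 0.541). In the fit with the array number as a block its adjusted p was 0.062, which did not pass either. Against non-induced cells the compound 3 difference was 0.50 (interval 0.136 to 0.871, adjusted p = 0.0684), which did not pass in the fit without a block. With the array number as a block the adjusted p was 0.00113. This difference passed in 7 of 21 other settings and not in 14, where the adjusted p reached 0.232. It passed without non-induced array 1 (0.62, adjusted p = 0.0452), induced vehicle array 1 (adjusted p = 0.0492) or compound 6 array 1 (adjusted p = 0.0289).

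Insig2 (feature TC1300001277.rn.1), the family member that is known for lacking strong control by SREBP in many cells, was 7.92, 7.94 and 7.86 in non-induced cells, 8.0, 8.10 and 8.08 with induction and vehicle, 8.05, 8.07 and 8.13 with compound 3 and 8.02, 8.06 and 8.03 with compound 6. All 9 arrays of induced cells lay above the 3 non-induced arrays, and the induced groups overlapped one another. How many of all features show that pattern was not counted. The compound 3 difference from non-induced cells, 0.18 (interval 0.077 to 0.276), passed at an adjusted p of 0.0216 and with the array number as a block at 0.0272. This call was lost in 7 of 21 other settings, among them without non-induced array 3 (adjusted p = 0.0968), compound 3 array 2 (0.0537) or compound 3 array 3 (0.0892). Induction with vehicle gave 0.15 (interval 0.054 to 0.253, adjusted p = 0.0601). It passed in 3 of 21 other settings, 1 of them without induced vehicle array 1 (0.0312), and not in 18, where the adjusted p reached 0.218. Compound 6 against non-induced cells was 0.13 (adjusted p = 0.121).

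Stard4, a soluble carrier that moves cholesterol between membranes and is an SREBP target, lay at 8.64, 8.58 and 8.57 in non-induced cells, 8.64, 8.46 and 8.55 with induction and vehicle, 8.81, 8.77 and 8.70 with compound 3, and 8.75, 8.52 and 8.53 with compound 6. As for Insig1, the compound 3 arrays lay above all vehicle arrays and overlapped only compound 6 array 1. The compound 3 difference from induced vehicle cells was 0.21 ± 0.07 (SE; interval 0.058 to 0.362, limma adjusted p = 0.497). Mylip, the ligase of the LXR arm that lowers lipoprotein uptake, was 5.15, 5.16 and 5.18 in non-induced cells, 5.29, 5.32 and 5.41 with induction and vehicle, 5.36, 5.30 and 5.31 with compound 3 and 5.27, 5.36 and 5.20 with compound 6. Every induced array lay above the non-induced ones, a pattern whose share over all features was not counted. The induction difference was 0.18 (interval 0.064 to 0.290, adjusted p = 0.0561) and did not pass. It passed in 2 of 20 other settings, without induced vehicle array 1 (0.0389) or compound 6 array 2 (0.0455). In the other 18 it did not, and the adjusted p reached 0.166. Compound 3 against non-induced cells was 0.16 (adjusted p = 0.0593). It passed in 3 of 20 other settings: without induced vehicle array 3 (0.0456) or compound 6 array 2 (0.048), and with median scaling (0.0495). In the other 17 it did not pass, and the adjusted p reached 0.309.

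Both efflux pumps lay lower with compound 3 than with vehicle. Abca1 (feature TC0500002749.rn.1), which loads cholesterol onto lipid-poor apolipoprotein, was 5.96, 5.97 and 6.00 in non-induced cells, 5.96, 6.11 and 6.09 with induction and vehicle, 5.88, 5.71 and 5.94 with compound 3 and 5.77, 5.65 and 5.80 with compound 6. All 6 compound arrays lay below all 6 vehicle arrays, narrowly, with the nearest at 5.94 and 5.96. Of the 9 genes only Abca1 showed this, and the share of all features that do was not counted. With compound 6 the difference from induced vehicle was -0.31 ± 0.07 (SE; 0.805-fold, interval -0.461 to -0.166), with a limma adjusted p of 0.629, and it passed in 0 of 20 other settings. With compound 3 it was -0.21 (interval -0.358 to -0.062, adjusted p = 0.472). Both values use the same 3 vehicle arrays. Against non-induced cells compound 6 gave -0.24 (interval -0.384 to -0.089, adjusted p = 0.0572). This passed in 4 of 20 other settings, among them without induced vehicle array 1 (0.0436) or compound 3 array 2 (0.0368). It did not pass in 16, where the adjusted p reached 0.214.

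Abcg1, which exports cholesterol to mature high-density lipoprotein, was 8.27, 8.24 and 8.27 in non-induced cells, 8.19, 8.27 and 8.37 with induction and vehicle, 8.13, 8.16 and 8.10 with compound 3 and 8.29, 8.18 and 8.17 with compound 6. The compound 3 arrays were the lowest 3 of the 12, while compound 6 overlapped vehicle. Compound 3 differed from induced vehicle by -0.15 (interval -0.265 to -0.028, adjusted p = 0.57). Compound 6 differed from it by -0.063 (adjusted p = 0.954).

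**Figure D2:**
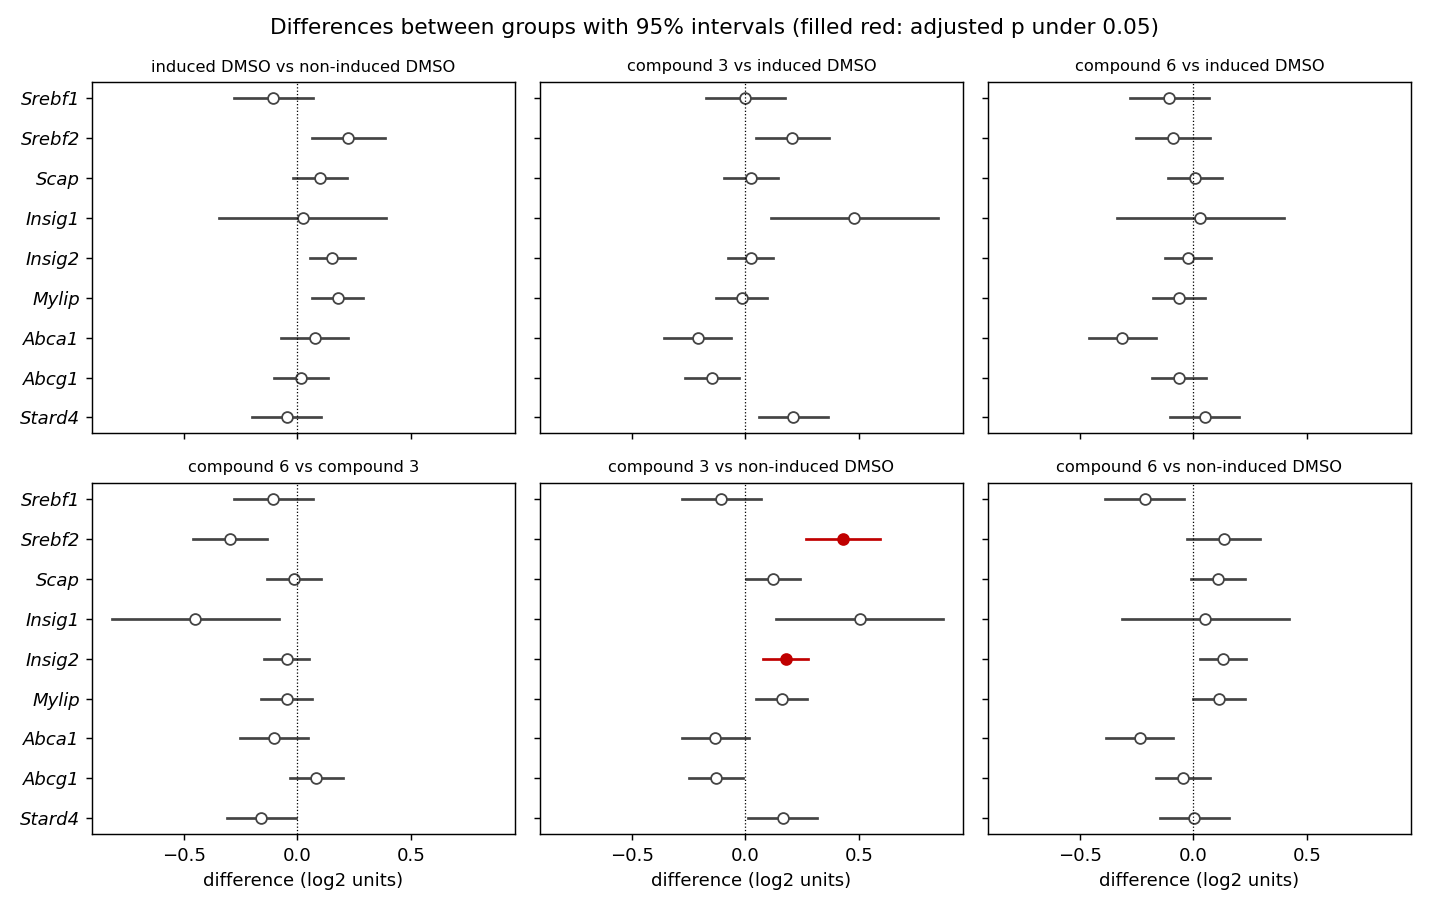
Log2 difference of each of the 9 genes in the group comparisons, with points at the limma estimate and bars for its 95% interval on the horizontal axis, and red for differences that passed. The interval half-widths run from 0.1 for Insig2 to 0.368 for Insig1, and Srebf2 and Insig2 in compound 3 against non-induced cells are the 2 differences past the adjusted threshold.

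Set against the whole array, the 9 genes gave these counts. Features without overlap were counted for 2 groups at a time, so the patterns above over more groups have no such share. For induction 0 of 9 passed (smallest adjusted p = 0.0561), where 9.06% of all features did (4.20% higher, 4.86% lower), and 3 had an unadjusted p under 0.05, beside 21% of features. In that comparison 3 genes (Srebf2, Insig2 and Mylip) lay wholly above the non-induced arrays, where 13.3% of all features did, with 9.45% wholly below and 22.7% in either direction. For compound 3 against induced vehicle 0 of 9 passed, with 0.0232% of features passing (0.00581% higher, 0.0174% lower), and 5 had an unadjusted p under 0.05, against 7.29% of features. The arrays did not overlap for those 5 genes, 3 higher and 2 lower, where 9.94% of all features did not overlap, 4.76% higher and 5.18% lower. For compound 6 against induced vehicle 0 of 9 passed, with 0.00291% of features passing, 1 had an unadjusted p under 0.05 (5.66% of features), and 1, Abca1, did not overlap, beside 8.04% of features (3.11% higher, 4.94% lower).

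Against non-induced cells, compound 3 gave 2 of 9 genes called higher (22.2%) and 0 lower, beside 15.2% of features called, 8.34% higher and 6.82% lower, and 7 of 9 had an unadjusted p under 0.05, beside 25.8% of features. Of the 9 genes 8 did not overlap, 6 higher and 2 lower, beside 30.3% of features (17.0% higher, 13.3% lower). Compound 6 gave 0 of 9 called against non-induced cells with 7.68% of features called (3.58% higher, 4.10% lower), and 4 had an unadjusted p under 0.05, beside 19.2% of features. Its 4 genes without overlap, 3 higher and 1 lower, stand beside 27.3% of features (13.3% higher, 14.0% lower). The median difference over the 9 genes was 0.077 for induction, 0.023 and -0.063 for compounds 3 and 6 against induced vehicle, and 0.16 and 0.053 for them against non-induced cells, while the median over all features lay between -0.010 and 0.013 in every comparison. No neighbouring pair of groups in the order of means differed at the adjusted threshold for any of the 9 genes.

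The compounds, given at the same dose and time, were compared directly as 1 pair. None of the 9 genes passed for compound 6 against compound 3, where 0.0436% of features passed (0.0232% higher, 0.0203% lower), and 3 had an unadjusted p under 0.05, beside 8.14% of features. These were Srebf2, lower with compound 6 by -0.30 (interval -0.458 to -0.135, limma adjusted p = 0.2), Insig1 at -0.45 (interval -0.818 to -0.082, adjusted p = 0.47) and Stard4 at -0.16 (interval -0.312 to -0.0085, adjusted p = 0.582). With the array number as a block the Insig1 difference had an adjusted p of 0.0534 and did not pass. The arrays of the compounds did not overlap for Srebf2, lower with compound 6, and Abcg1, higher with it by 0.083 (interval -0.035 to 0.202), beside 14.0% of features (5.77% higher, 8.28% lower). For Abca1 the difference was -0.10 (interval -0.251 to 0.044), so the interval holds both no difference and one as large as that of compound 3 from vehicle. The intervals were -0.280 to 0.067 for Srebf1, -0.135 to 0.102 for Scap, -0.146 to 0.053 for Insig2 and -0.160 to 0.066 for Mylip, and they do not show that the compounds act alike on these genes. In all, 8 of the 9 differences lay below 0, with a median of -0.103.

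For some of these genes the array numbered 1 stood above the others of its group in all 4 groups. This was so for 3 of the 9 genes, Srebf1, Insig1 and Stard4, and for 6.41% of all features, while arrays numbered 2 and 3 were highest throughout in 0.662% and 0.842%. Arrays numbered 1, 2 and 3 were lowest throughout in 2.95%, 0.75% and 1.37% of features, and in 0 of the 9 genes. Insig1 on array 1 exceeded its group mean by 0.173 to 0.373 log2 units, beside a compound 3 difference from vehicle of 0.48. Srebf1 exceeded it by 0.04 to 0.167 and Stard4 by 0.043 to 0.15. Array 1 stood highest in all 4 groups for 7 of 18 measured cholesterol synthesis genes and 8 of 15 fatty acid genes that SREBP is known to drive, but for 1 of 13 LXR and efflux genes. It was lowest throughout for 3 of 15 genes that process SREBP or partner with INSIG, and array 3 for 4 of the 18 cholesterol synthesis genes. What the arrays numbered 1 have in common was not tested. With array 1 of all 4 groups left out, a setting chosen after seeing the data, Insig1 differed by 0.53 between compound 3 and non-induced cells (adjusted p = 0.00706), and the Insig2 call was lost (0.20, adjusted p = 0.0781).

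**Figure D3:**
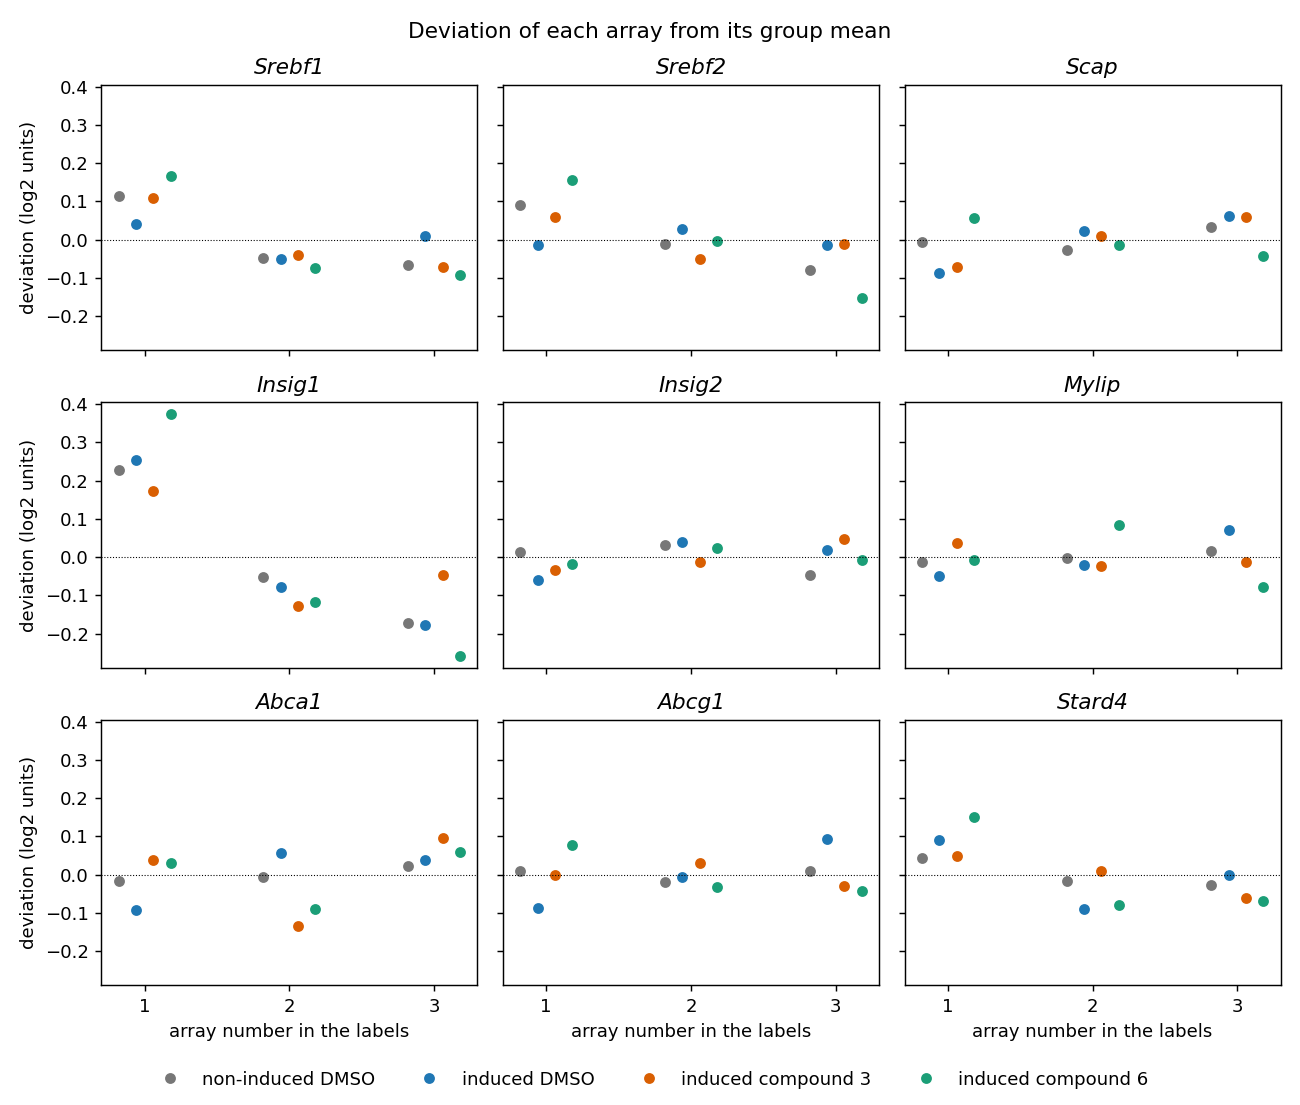
Deviation of each array from its group mean in log2 units for the 9 genes, with the array number on the horizontal axis and points coloured by group. For Insig1 the 4 arrays numbered 1 lie 0.173 to 0.373 above their group means.

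The genes on either side of these regulators were described with lists for the pathway. Of 18 measured cholesterol synthesis genes 6 rose with induction and 0 fell, with a median of 0.173, beside 4.20% and 4.86% of all features. Lss, which closes the sterol ring, rose by 0.51 (limma adjusted p = 0.0106) and Mvk, a mevalonate kinase, by 0.25 (adjusted p = 0.00645). Without non-induced array 3 or induced vehicle array 2 the count was 3 or 2, and over all settings it ran from 2 to 9. With compound 3 all 18 lay above induced vehicle at a median of 0.358 with 0 passing, the nearest being the squalene epoxidase gene Sqle at 0.50 ± 0.08 (SE; adjusted p = 0.0776). Sqle passed without compound 6 array 1 (adjusted p = 0.037), where 2 genes of the list did, and over all settings 0 to 7 did, the most with the array number as a block. With compound 6 a median of -0.033 was seen, 4 above and 13 below, with 0 passing, and Mvd had the smallest p (-0.13, adjusted p = 0.876).

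Between the compounds all 18 of these genes lay lower with compound 6 (median -0.373) and 3 passed, beside 0.0203% of all features called lower: Tm7sf2, a sterol reductase gene, at -0.55 (adjusted p = 0.0426), Idi1, an isopentenyl diphosphate isomerase gene, at -0.64 (adjusted p = 0.0426), and Sqle, named after its value was seen and only just under the threshold, at -0.54. That count depended on the arrays used, at 2 without induced vehicle array 1 or compound 6 array 1 and 0 without any other single array, and it was 9 with the array number as a block. Against non-induced cells 16 of the 18 rose with compound 3 (median 0.488), a count that stayed at 15 or 16 in every other setting run, and 2, Lss by 0.41 (adjusted p = 0.0368) and Mvk by 0.18 (adjusted p = 0.0434), with compound 6 (median 0.135), beside 8.34% and 3.58% of all features called higher. The count for compound 6 ran from 0 to 7 over the other settings, at 0 without non-induced array 2 or 3, compound 3 array 1 or 2 or compound 6 array 1, and at 1 without compound 3 array 3 or compound 6 array 2. This list's direction in these arrays was known when the genes were grouped and is not independent evidence. Of 15 fatty acid genes known as SREBP targets, 13 lay above induced vehicle with compound 3 (median 0.177) and 15 of 15 lay lower with compound 6 than with compound 3 (median -0.18), with 0 passing in both. The smallest p belonged to Acaca, an acetyl-CoA carboxylase gene, at 0.19 (adjusted p = 0.493) and -0.19 (adjusted p = 0.381). With compound 6 against vehicle the median was -0.027 and 0 passed, led by Mid1ip1 at -0.18 (adjusted p = 0.875). On induction 0 rose and 1 fell, beside 4.20% and 4.86% of all features: Acly, the ATP citrate lyase gene, by 0.25 (adjusted p = 0.0115), a call lost without non-induced array 2 (adjusted p = 0.0546) or 3 (0.0522). With quantile normalization the Acly difference shrank to -0.1181 (adjusted p = 0.43). Compared with non-induced cells, 6 of the 15 fatty acid genes rose and 1 fell with compound 3, and 0 rose and 1 fell with compound 6. Of all features, 8.34% and 6.82% were called higher and lower with compound 3, and 3.58% and 4.10% with compound 6. Over the other settings the counts called ran from 2 to 7 and from 1 to 2.

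**Figure D4:**
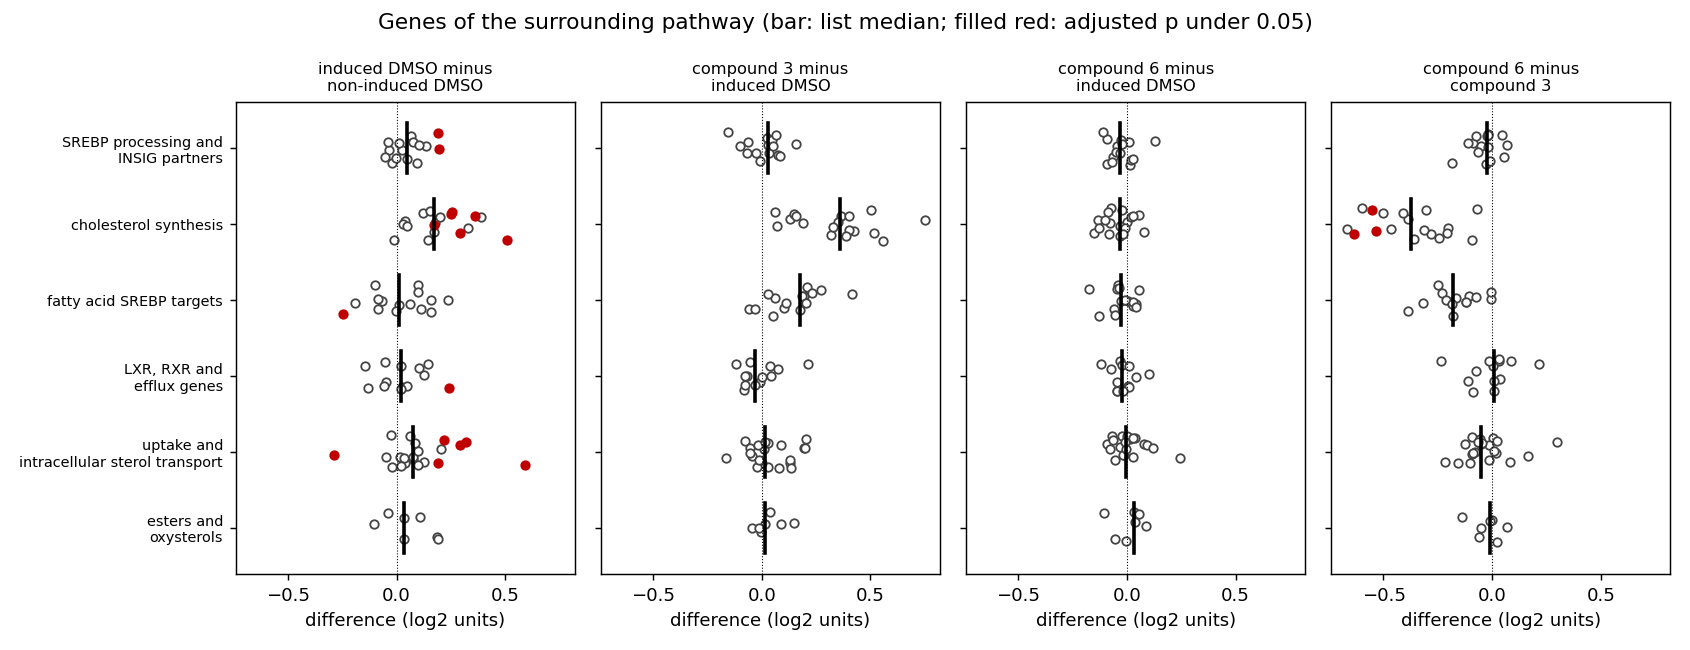
Log2 differences, on the horizontal axis, of the measured genes of 6 pathway lists in 4 group comparisons, with a point per gene, red where it passed, and a bar at the list's median. Cholesterol synthesis genes lie above 0 for compound 3 against induced vehicle (median 0.358) and close to it for compound 6 (median -0.033).

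Of 15 measured genes that process SREBP or partner with INSIG, 2 rose with induction, Mbtps1, which encodes the protease that first cuts SREBP, by 0.20 (adjusted p = 0.015) and the INSIG-binding Pgrmc1 by 0.19 (adjusted p = 0.0354), beside 4.20% of all features called higher. Over the other settings this count ran from 0 to 2, and was 0 with no filter, with median scaling and without induced vehicle array 2, among others. The Mbtps1 call was lost in 6 of 20 other settings and that of Pgrmc1 in 12 of 20. None passed in the compound comparisons in induced cells. There the smallest p belonged to Pgrmc1 with compound 3 (0.16, adjusted p = 0.462) and between the compounds (-0.18, adjusted p = 0.254), and to the protease gene Mbtps2 with compound 6 (0.13, adjusted p = 0.876). The list's medians lay between -0.03 and 0.053 in the 6 comparisons. Compared with non-induced cells, 3 of the 15 rose with compound 3 and 0 with compound 6, beside 8.34% and 3.58% of all features called higher. Over the other settings the counts called ran from 1 to 4 and from 0 to 1.

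Of 13 measured genes of the LXR and efflux arm 1 rose on induction, Abca2, a transporter of endosomal lipid, by 0.24 (adjusted p = 0.0264), beside 4.20% of all features called higher. That call was lost in 7 of 20 other settings, among them without non-induced array 2 (adjusted p = 0.11) or 3 (0.0912) or induced vehicle array 2 (0.101) or 3 (0.0659), which left 0 genes of the list. None passed in the compound comparisons in induced cells, where the medians were -0.033 for compound 3, -0.023 for compound 6 and 0.007 between them. The smallest p there belonged to Lpcat3, a phospholipid acyltransferase gene and LXR target, with compound 3 (0.21, adjusted p = 0.508), the LXR gene Nr1h3 with compound 6 (-0.12, adjusted p = 0.876) and the efflux gene Abcg4 between the compounds (0.22, adjusted p = 0.192). The LXR genes themselves lay between 8.61 and 8.85 for Nr1h2 and between 5.97 and 6.16 for Nr1h3 over the 12 arrays, with no comparison passing. Against non-induced cells 2 genes of this list, Abca2 and Lpcat3, rose by 0.32 each with compound 3 and Abcg4 fell by 0.26, and with compound 6 Abca2 rose by 0.25 (adjusted p = 0.0285), genes named here after their values were seen. Over the other settings the counts ran from 2 to 5 with compound 3 and from 0 to 2 with compound 6, beside 15.2% and 7.68% of all features called.

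Of 21 measured genes of uptake and intracellular sterol transport 5 rose and 1 fell on induction (median 0.077), beside 4.20% and 4.86% of all features. Stard3nl, a late endosomal membrane contact protein gene, rose by 0.59 (adjusted p = 0.000162), and Gramd1b, a carrier of plasma membrane cholesterol to the endoplasmic reticulum, fell by 0.29 (adjusted p = 0.00287). Both calls held in 20 of 20 other settings. The other 4 that rose, named after their values were seen, were the lysosomal lipase gene Lipa (0.32, adjusted p = 0.00508) and the carriers Npc2 (0.29), Stard3 (0.22) and Osbpl2 (0.19). The count of 6 was 3 without non-induced array 3 or induced vehicle array 2. Npc1, the lysosomal cholesterol exporter, lay between 8.87 and 9.24, with no comparison passing. Among compound comparisons in induced cells 0 of 21 passed, led by the lysosomal membrane gene Lamp2 with compound 3 (0.19, adjusted p = 0.262) and the carrier gene Gramd1c with compound 6 (0.24, adjusted p = 0.875) and between the compounds (0.30, adjusted p = 0.273). Compared with non-induced cells, 8 of the 21 rose and 1 fell with compound 3, and 6 rose and 1 fell with compound 6. The counts called ran from 6 to 10 and from 3 to 7 over the other settings. Of 7 measured genes of sterol esters and oxysterols 0 passed in the compound comparisons in induced cells. On induction 0 of the 7 passed, beside 9.06% of all features. Soat1, which esterifies cholesterol, had the smallest p on induction (0.19, adjusted p = 0.0525), with compound 3 (0.15, adjusted p = 0.556) and with compound 6 (0.09, adjusted p = 0.895), and Hsd3b7 between the compounds (-0.14, adjusted p = 0.691). Each compound gave 2 of the 7 called higher than in non-induced cells, named after their values were seen. They were Soat1 (0.34 and 0.28 with compounds 3 and 6) and Nceh1 (0.20 and 0.23). The count ran from 1 to 2 over the other settings. Of all features, 8.34% and 6.82% were called higher and lower with compound 3, and 3.58% and 4.10% with compound 6.

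The genes whose values followed 4 of the regulators most closely over the 12 arrays were ranked by Pearson's r among 15312 other genes, as a description in which arrays share groups and array numbers. Insig1 was followed by Tmem132b at 0.972, Hsd17b7 at 0.959, Fads1 at 0.956, Slc25a1 at 0.940 and Lpcat3 at 0.930. Hsd17b7 acts in sterol synthesis and Fads1 in fatty acid desaturation. Stard4 shared Hsd17b7 (0.927) and Tmem132b (0.924) with it, followed by the desaturase genes Scd (0.920) and Scd2 (0.918) and by Insig1 (0.913). Abca1 was followed less closely, by Eef1a2 at 0.871, Mcf2l at 0.854, Arfgap2 at 0.803, Grik5 at 0.802 and Angpt2 at 0.797. For Srebf1 the nearest were Apeh at 0.932, Ascc1 at 0.929, Acbd3 at 0.920, Card9 at 0.910 and Emp3 at 0.892.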

How the data were processed

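Total RNA, 250 ng per sample, was hybridised with biotin label to the Affymetrix Rat Transcriptome Array 1.0, 1 sample on each of 12 arrays. The deposited log2 values were made by the authors with Affymetrix Expression Console and RMA, per the submitters' processing notes, versions and options not given. Of 70580 features, 1738 controls were left out. Of the other 68842, 23446 carried 1 symbol, and 34422 with a mean over the 12 arrays at or above the median (4.631) were kept. Differences came from limma 3.58.1 in R 4.3.3 (lmFit, contrasts.fit, eBayes without trend, 4 group means, 8 residual degrees of freedom), with Benjamini-Hochberg adjustment over all features kept, and the script was tested on simulated data. Array number limits the precision.

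The genes and pathway lists were chosen with earlier results of these data known. Named were the 9 genes and, in each list and each of the first 4 comparisons, the 2 called genes with the smallest p, or the 1 with the smallest p where none was called, with a few fixed names. Some of these are not reported here.

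The labels do not say what an array number marks. Deviations from group means of same-numbered arrays correlated at -0.169 to 0.452 over 18 pairs of arrays (median 0.1135, 10 over 0.1), against -0.464 to 0.42 over 36 pairs with other numbers (median -0.099, 6 over 0.1). The 6 pairs of arrays numbered 1 lay at 0.219 to 0.452. Since not every same-numbered pair exceeded 0.1, the numbers were not taken to pair the arrays in general. For compound 3 and non-induced cells all 3 pairs exceeded 0.1 (0.406, 0.263 and 0.109), and blocked values are given beside that comparison. For Insig1 blocked values are also given for compound 3 against induced vehicle and for compound 6 against compound 3. In those comparisons not every pair exceeded 0.1.

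Alternatives were no filter, the 75th percentile (6.698) as filter, median scaling, quantile normalization, an intensity trend with a robust prior, the array number as a block, only the 2 groups compared, and each array left out in turn. Leaving out array 1 of all groups was added after seeing the data. Averaging a gene's features changes nothing here, since each had 1. Promoters and the microRNA came from RefSeq (GRCr8). Figures were drawn in Python 3.11.15 with pandas 2.3.3 and matplotlib 3.10.9.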

Additional observations from a re-analysis of the deposited data

How the results depend on the processing

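Of 54 differences (9 genes in 6 comparisons), 12 changed sign in at least 1 of up to 21 other settings, none of them called in a setting that turned it. Srebf1 with compound 3 against induced vehicle is not counted among them. Its difference was 0 in the main fit and ran from -0.055 to 0.035. The rise of Srebf2 with compound 3 against non-induced cells ranged from 0.39 to 0.475 and passed in 21 of 21, and that of Insig2 passed in 14 of 21. The causes of the changes below were not tested. Mylip and Abca1, the dimmest of the 9 genes, fall under the 75th percentile filter.

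Features called, against 3120 for induction, 8 and 1 for compounds 3 and 6 against induced vehicle, 15 between them and 2644 for compound 6 against non-induced cells, came to 2072, 3, 0, 2 and 1623 with no filter. Only the 2 groups compared gave 1573, 2, 0 and 1 for the first 4. For compound 3 against induced vehicle the count was 22 with the 75th percentile filter, 18 with trend and robust prior and 4 with median scaling, which also gave 6 between the compounds. With the array number as a replicate block it was 26, with 0 for compound 6 and 45 between the compounds. Array 1 of all groups left out, chosen after seeing the data, gave 2, 0 and 1 for these comparisons and 1644 for compound 6 against non-induced cells. Leaving out 1 array gave 1815 to 5165, 2 to 6, 0 to 1, 1 to 9, 3465 to 5477 (compound 3 against non-induced cells) and 1210 to 2938.

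Of the 9 genes, 1 passed on induction with the 75th percentile filter (Insig2), trend and robust prior (Insig2), quantile normalization (Srebf2) or the block (Srebf2). With no filter 1 passed for compound 3 against non-induced cells. With median scaling 2 passed there, Srebf2 and Mylip (limma adjusted p = 0.0495), while Insig2 did not (0.0503). For compound 6 against non-induced cells 2 passed with the block (Srebf1, adjusted p = 0.0283, and Abca1, 0.0479) and 1 with only these groups. Leaving out 1 array gave 0 to 2 on induction, 1 to 3 and 0 to 1 for compounds 3 and 6 against non-induced cells, and 0 to 0 in the other comparisons. Beside these calls of Srebf2, Srebf1 and Abca1, the block moved only that of Insig1 with compound 3 against non-induced cells.

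Signs turned with median scaling for Insig1 (-0.0067) and Abcg1 (-0.0133) on induction, Mylip with compound 3 (0.0033) and Insig2 with compound 6 (0.0033) against vehicle, and with quantile normalization for Mylip with compound 3 (0.0008) and Scap with compound 6 (-0.0051). Leaving out 1 array gave, on induction, -0.1033 to 0.1367 for Insig1 and -0.03 to 0.06 for Abcg1. For compound 3 against vehicle it gave -0.02 to 0.0583 for Scap, -0.0067 to 0.0433 for Insig2 and -0.0417 to 0.0183 for Mylip. For compound 6 against vehicle it gave -0.0367 to 0.0383 for Scap, -0.1567 to 0.1583 for Insig1 and -0.025 to 0.095 for Stard4. For Scap between the compounds it gave -0.0517 to 0.0133, and for compound 6 against non-induced cells -0.1333 to 0.1817 for Insig1 and -0.0717 to 0.0433 for Stard4. Without array 1 of all groups Scap (-0.065) and Insig1 (-0.03) turned for compound 6 against vehicle, and Insig1 (-0.02) and Stard4 (-0.05) against non-induced cells.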
